A study of Mus musculus with 12 samples.

Results

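The perinuclear theca is the cytoskeletal shell between the sperm nucleus and the membranes around it. Its subacrosomal layer lies under the acrosome, and its posterior part, the calyx, encloses the rest of the nucleus. It is built in spermatids, where the acrosome has to be fixed to the nucleus while the head takes shape, and it is built largely from testis-specific relatives of actin and from basic structural proteins. The gene set described here comprised 10 genes chosen by name: 6 actin-like or actin-related genes (Actl7a, Actl7b, Actl9, Actrt1, Actrt2 and Actrt3), the testis-specific alpha subunit of the actin capping protein (Capza3), calicin (Ccin) and both cylicins (Cylc1 and Cylc2). All 10 were found in a table of 28668 gene symbols, and all 10 passed the filter on low values in each comparison.

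The samples were round spermatids sorted by flow cytometry, with cycloheximide present, from testes of 8-week-old male mice. The control mice were heterozygous (Igf2bp3+/-, with 1 intact copy) and the knockout mice homozygous (Igf2bp3-/-, with 0 intact copies) for a frameshift made by Cas9 in zygotes (the deposited table names the columns of the control libraries WT, whereas the labels give Igf2bp3+/-). IGF2BP3 is an RNA-binding protein, and the study took knockout males with impaired fertility. Each of the 2 genotypes had 3 replicates of RNA-seq, made from the total input, and 3 of RNC-seq, made from gradient fractions in which mRNAs carried at least 4 ribosomes, giving 12 libraries. Values are FPKM, fragment numbers scaled by transcript length and by library size, so levels can be compared approximately between genes. Genes that overlap on opposite strands and the uncertain library chemistry, both described below, limit such comparisons.

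The members were spread unevenly over the genome (GRCm38, GENCODE M21). Actl7a (chr4:56743413-56744925, plus strand) and Actl7b (chr4:56740005-56741443, minus strand) lay head to head, with 1969 bases between them. Ccin (chr4:43983483-43985423), Cylc2 (chr4:51216678-51230272) and Actrt2 (chr4:154666433-154667867) were also on chromosome 4. Actrt1 (chrX:46329007-46330345) and Cylc1 (chrX:111110418-111125854) were on the X chromosome, Actl9 (chr17:33432896-33434268) on chromosome 17, Actrt3 (chr3:30597073-30599939) on chromosome 3 and Capza3 (chr6:140041252-140042778) on chromosome 6. Of the 10 genes, 7 had a transcript of 1 exon. The exceptions were Actrt3 with 2 exons, Cylc2 with 5 and Cylc1 with 6.

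Gene starts were compared because most members are single-exon genes used in the same cells. RefSeq promoter windows (GRCm38.p6, 250 bases before to 50 after the start) were at hand for 8 members, not for Capza3 and Cylc2. The letters TGANGTCA, searched on both strands, resemble the cyclic AMP response element TGACGTCA, which the spermatid activator CREM is known to bind. They occurred in the windows of 5 of the 8 members, against 10.02% of 27025 genes, and the full TGACGTCA in 1 of 8, against 2.031% of the same genes. The motif was chosen after these windows had been read, so the share is a description without a test, and a match of letters is not evidence of binding. Each match is shown with 10 bases on either side, read 5′ to 3′ on the strand of its gene, the motif in capitals. All 7 lay outside GENCODE genes, upstream of the gene start.
Actl7a, chr4:56743372-56743399: tcacaatcagTGATGTCActgttgggca
Actl7b, chr4:56741444-56741471: ccattcctggTGACATCAcaacccaagt
Actl9, chr17:33432785-33432812: cccccctgccTGACCTCAactcatccct
Actl9, chr17:33432829-33432856: gcaagcacaaTGATGTCAcagaccactg
Ccin, chr4:43983427-43983454: tacattatgaTGACCTCAtccattctat
Ccin, chr4:43983444-43983471: atccattctaTGACGTCAccctctctcc
Cylc1, chrX:111110376-111110403: ggtctctttaTGATGTCAtgactcaaca
The 2 windows of Ccin share bases. Between motif and RefSeq start lay 24 bases in Cylc1, the fewest, and 96 bases for the farther match of Actl9, the most. The GENCODE starts given above differ from the RefSeq starts for some members, Actl7b among them. Distances from the printed coordinates are therefore not the same, and by them Cylc1 is not the nearest.

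The table holds no read counts. From the steps between low FPKM values, the libraries held about 18200000 to 47600000 fragments, the deepest being Igf2bp3-/- RNA-seq replicate 1, and the fewest fragments behind any member were about 335, for Actrt1 in Igf2bp3+/- RNC-seq replicate 2. By the methods of the study, cells were isolated from each mouse, but the labels tie no library to a mouse, so p-values measure the spread between these libraries. One abundant transcript, CT010467.1, took 5.68% to 19.4% of the summed FPKM of a library, which moves all other values. In RNC-seq it took 15.9% to 19.4% in Igf2bp3+/- and 8.14% to 14.6% in Igf2bp3-/-, without overlap. In RNA-seq it took 9.22% to 13.3% in Igf2bp3+/- and 5.68% to 9.25% in Igf2bp3-/-, with overlap. All 5 round spermatid markers (Acrv1, Acr, Izumo1, Catsper3 and Tssk1) were present in all 4 groups, with group means between 48.7 and 297 FPKM. Over all libraries, the protamine and transition protein genes (Prm1, Prm2, Tnp1 and Tnp2) summed to 8042 to 20820 FPKM. The study measured these mRNAs by qPCR in sorted round spermatids and reported them lower in Igf2bp3-/-. Their sum alone therefore cannot show whether elongating cells were present. The 5 spermatocyte markers summed to 84.4 to 203 FPKM, and the 6 spermatogonial markers to 5.40 to 8.11. The sums of 4 somatic lists were higher in Igf2bp3-/- in both assays without overlap. In RNA-seq, the 5 Leydig cell markers summed to 14.5 to 21.5 FPKM in Igf2bp3+/- and 46.1 to 52.4 in Igf2bp3-/-, the 6 Sertoli cell markers to 3.74 to 4.49 and 7.27 to 7.83, the 3 peritubular markers to 1.49 to 1.85 and 4.27 to 5.49, and the 5 macrophage markers to 4.58 to 5.74 and 7.46 to 8.72. In RNC-seq, the Leydig cell markers summed to 6.12 to 13.9 FPKM in Igf2bp3+/- and 50.3 to 99.98 in Igf2bp3-/-, where the mean of Insl3, a hormone of Leydig cells, was 64.1 FPKM. The Sertoli and peritubular sums rested mostly on 1 gene each in RNA-seq, Clu, with means of 3.13 and 6.70 FPKM in the respective genotypes, and Dcn, with means of 0.872 and 3.88. The smooth muscle myosin gene Myh11, of the peritubular list, was lower in Igf2bp3-/- RNA-seq without overlap, with means of 0.221 and 0.161 FPKM. Its log2 difference was -0.30 ± 0.28 (SE, limma, adjusted p = 0.640), so it was not called. In the Sertoli list, Rhox5 (0.203 and 0.131) and Aard (0.271 and 0.211) had lower means in Igf2bp3-/- RNA-seq. Sox9 (0.127 and 0.170), Wt1 (0.0790 and 0.0899) and Cldn11 (0.187 and 0.303) had higher ones. The libraries of all these Sertoli genes overlapped between genotypes. No somatic marker was at 0 in all libraries of a group. Igf2bp3 itself was at 38.2, 38.6 and 33.4 FPKM in the Igf2bp3+/- RNA-seq libraries and 31.7, 32.5 and 31.4 in the Igf2bp3-/- ones. A frameshift need not lower the transcript, and 18.7% of the exonic bases of Igf2bp3 overlap a gene on the other strand, so this level does not check the labels.

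The actin-like genes spanned the widest range of levels. Actrt2, an actin-related protein of the theca, was at 484, 523 and 529 FPKM in the 3 Igf2bp3+/- RNA-seq libraries, and Actl7b, an actin-like protein needed for spermatid shaping, was at 433, 431 and 505. Their libraries overlapped, and both means (512 ± 24.4 and 456 ± 42.4, SD, n = 3) stood above 99.6% of the 20494 genes with a mean FPKM above 0.1 in that group. For comparison, beta-actin (Actb) was at 404 ± 11.9 FPKM (SD, n = 3) in the same libraries, below both.

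Actl7a and Actl9, which are known to act together in fixing the acrosome to the nucleus, stood at almost the same level. Actl7a was at 209, 240 and 233 FPKM in Igf2bp3+/- RNA-seq and Actl9 at 209, 230 and 239, and the libraries of the 2 genes overlapped. The mean of Actrt2 was 2.25-fold that of Actl7a and 2.26-fold that of Actl9.

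Actrt1 and Actrt3, further actin-related proteins of the theca, were the lowest of the set. Actrt3 was at 24.7, 26.1 and 21.5 FPKM and Actrt1 at 16.4, 17.6 and 13.6 in Igf2bp3+/- RNA-seq, without overlap between them. The coding relative closest to Actrt1 within the set was Actrt2, with 70.0% identity over 83.9% of the Actrt1 transcript, yet the mean of Actrt2 was 32.3-fold that of Actrt1. Actrt1 had no copy of at least 95% identity over 50% of its transcript, and neither had any other member except Actl7b, whose match is the overlapping gene described further on.

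Capping protein, calicin and the cylicins filled the middle of the range. Capza3 was at 95.7, 108 and 89.8 FPKM, Ccin at 86.5, 94.0 and 101, and Cylc2 at 93.7, 81.0 and 64.8 in Igf2bp3+/- RNA-seq. These 3 overlapped as neighbours in the order, whereas Cylc1, at 43.6, 43.0 and 29.9, lay below all of them. The alpha subunits of the capping protein used outside the testis were also measured: Capza1 was at 88.2 ± 6.12 FPKM (SD, n = 3) and Capza2 at 6.06 ± 1.19, so Capza3 and Capza1 were at similar levels in these cells and Capza2 far lower.

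The order was nearly the same in Igf2bp3-/- RNA-seq, where Actl7b (528, 582 and 579 FPKM) and Actrt2 (499, 563 and 627) overlapped at the top and Actrt1 (16.3, 17.4 and 18.6) was lowest. In RNA-seq, the means of both cylicins stood above that of Actrt3 in both genotypes, and in RNC-seq the mean of Actrt3 stood above those of both. The RNC-seq libraries of Actrt3 and Cylc2 overlapped in both genotypes.

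**Figure D1:**
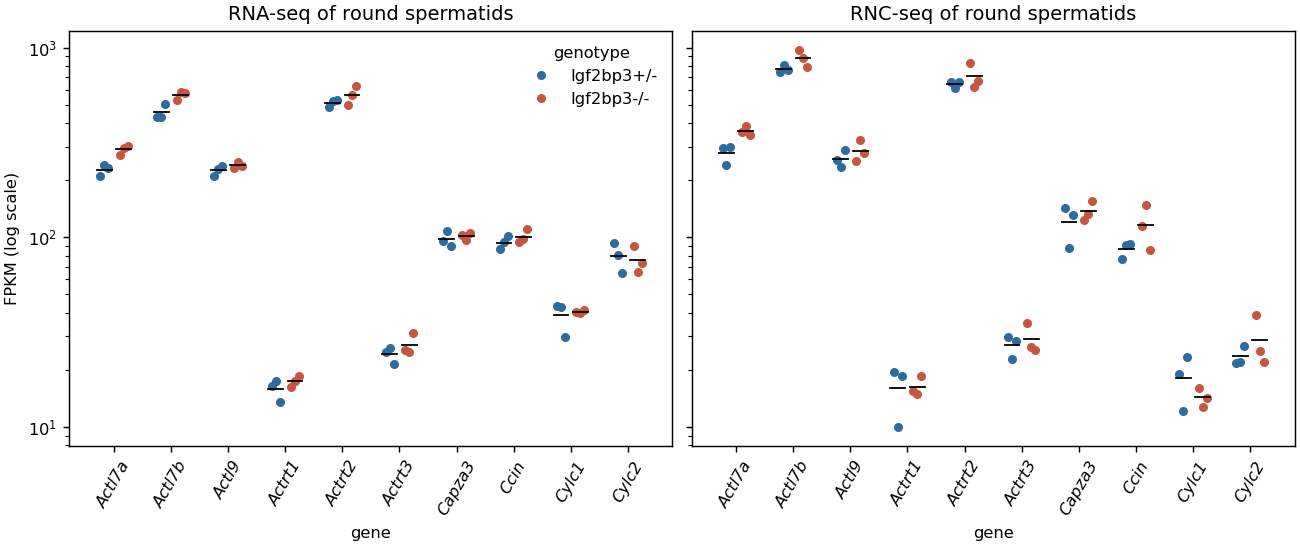
FPKM (log axis) of the 10 members in RNA-seq (left) and RNC-seq (right). Points are libraries, 3 a group, blue for Igf2bp3+/- and red for Igf2bp3-/-, and black bars are group means. Actrt2 and Actl7b are highest and Actrt1 and Actrt3 lowest in RNA-seq, and Cylc1 and Cylc2 sit lower in RNC-seq than in RNA-seq.

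The first question of the design was whether loss of Igf2bp3 alters transcript abundance. No member passed an adjusted p of 0.05 in RNA-seq (limma on log2(FPKM + 0.1), Benjamini-Hochberg adjustment over 20352 genes), where 0.256% of all genes did. Of the 10 log2 changes, Igf2bp3-/- minus Igf2bp3+/-, 9 were above 0, as were 56.2% of all genes, and the median of the members was 0.12 against 0.05 for all genes. After rescaling without CT010467.1, which also brings each library to the same sum, 5 of the 10 were above 0. Their median was then -0.0045, against -0.068 for all genes. With no adjustment, 2 members had p under 0.05, both higher in Igf2bp3-/-, as had 10.4% of all genes in that direction.

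These 2 were the head-to-head neighbours. Actl7a was at 272, 297 and 304 FPKM in the Igf2bp3-/- libraries against 209, 240 and 233 in Igf2bp3+/-, a log2 difference of 0.36 ± 0.09 (SE, limma, adjusted p = 0.169). Actl7b was at 528, 582 and 579 FPKM against 433, 431 and 505, a log2 difference of 0.31 ± 0.09 (SE, limma, adjusted p = 0.214). Neither gene's libraries overlapped between genotypes, and neither difference passed the adjusted limit. Across all genes, 14.1% were higher without overlap in the same comparison.

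Other measurements moved with this difference. The 5 round spermatid markers summed to between 542 and 636 FPKM in Igf2bp3+/- RNA-seq and to between 730 and 809 in Igf2bp3-/-, again without overlap. All 5 were above 0 in log2 change, as were 56.2% of all genes, with a median of 0.28 against 0.05 for all genes. Of the 5, 4 were higher with an unadjusted p under 0.05, as were 10.4% of all genes, and none passed the adjusted limit. Acr, the gene of the acrosomal protease acrosin, had the largest log2 difference of them, 0.53 ± 0.09 (SE, limma, adjusted p = 0.0956). The Leydig cell sum given above was also higher, whereas that of the protamine and transition protein genes overlapped between the genotypes (8042 to 10390 and 9036 to 9214 FPKM). The part of these shifts in the values of Actl7a and Actl7b was not tested. In bulk samples, a different share of cells at one step of spermatid maturation and a different amount of RNA per cell cannot be told apart.

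The reads of Actl7b carry a limit of annotation. Of its exonic bases, 90.9% overlap Gm26657 on the opposite strand, and whether quantification used strand is not stated. Gm26657 ranged from 1.05 to 39.2 FPKM over the 12 libraries, against 431 to 972 for Actl7b. If strand was not used, reads from the opposite strand could be counted for Actl7b. The values assigned to Gm26657 do not bound that part, which was not tested.

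The other 8 members differed between genotypes in RNA-seq by less than 2 SE each. Their log2 differences ran from -0.06 ± 0.16 (SE) for Cylc2 to 0.17 ± 0.12 for Actrt3, with adjusted p between 0.530 and 0.874 (limma), and their libraries overlapped. Ccin, for example, was at 94.3, 98.5 and 110 FPKM in Igf2bp3-/-. Several of these signs were set by scaling. Under quantile normalization the changes of Actl9, Actrt2, Capza3, Ccin and Cylc1 were below 0, and 4 of these (all but Actrt2) were also below 0 when FPKM was rescaled without CT010467.1.

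**Figure D2:**
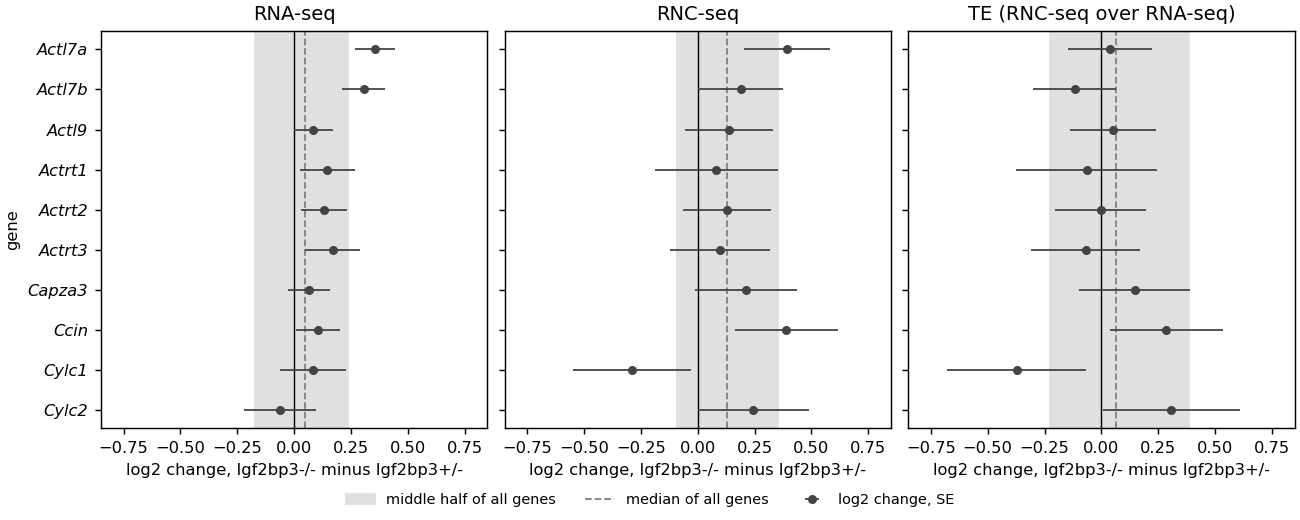
Log2 change, Igf2bp3-/- minus Igf2bp3+/-, of the 10 members in RNA-seq, RNC-seq and TE (points, with SE from limma). The grey band spans the 25th to 75th percentile of all genes tested, the dashed line is their median. Actl7a and Actl7b lie to the right of the band in RNA-seq, and in TE only Cylc1 lies outside it, to the left.

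On polysomes, no member passed the adjusted limit between genotypes either, against 0.115% of 19051 genes. Of the 10 members, 9 were above 0, as were 65.3% of all genes, and 0 had an unadjusted p under 0.05, against 6.48% of all genes. The members' median log2 difference was 0.16 and that of all genes 0.13. After rescaling without CT010467.1 these medians were 0.044 and 0.018, with 7 of the 10 members above 0.

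Actl7a was the single member without overlap in RNC-seq, at 361, 388 and 345 FPKM in Igf2bp3-/- against 296, 240 and 301 in Igf2bp3+/-. Its log2 difference of 0.39 ± 0.19 (SE) had an adjusted p of 0.768 (limma), and 9.44% of all genes were higher without overlap. Actl7b, at 972, 879 and 793 against 743, 810 and 760 FPKM, overlapped. Ccin had a difference of the same size as Actl7a, 0.39 ± 0.23, but with a wide spread: 115, 147 and 85.5 FPKM in Igf2bp3-/- against 76.5, 90.9 and 92.5. The difference of Ccin was 0.20 without Igf2bp3-/- RNC-seq replicate 2 and 0.59 without replicate 3, and neither passed the adjusted limit.

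Cylc1 was the 1 member with a log2 difference below 0 in RNC-seq, -0.29 ± 0.26 (SE, limma, adjusted p = 0.857). Its libraries were at 16.1, 12.8 and 14.3 FPKM in Igf2bp3-/- and at 19.0, 12.1 and 23.3 in Igf2bp3+/-, and they overlapped. Capza3 was at 124, 132 and 156 against 143, 87.8 and 130 FPKM. In Igf2bp3+/- RNC-seq, replicate 2 was the lowest library for Actl7a, Actl9, Actrt1, Actrt2, Actrt3, Capza3 and Cylc1 and the highest for Actl7b.

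**Figure D3:**
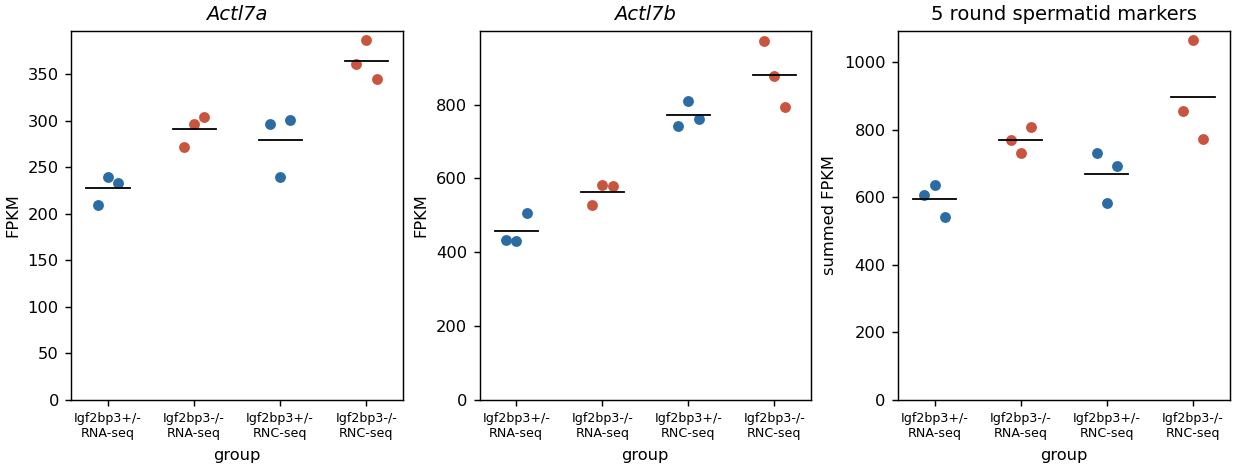
FPKM of Actl7a, Actl7b and the summed 5 round spermatid markers in each group (linear axes from 0). Points are libraries, 3 a group, and bars are means. In RNA-seq, the Igf2bp3-/- libraries lie above the Igf2bp3+/- libraries in all 3 panels, and in RNC-seq Actl7a and the marker sum do so, whereas for Actl7b the highest Igf2bp3+/- library (810 FPKM) lies above the lowest Igf2bp3-/- library (793 FPKM).

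The central question of the study was translation. Translational efficiency (TE), RNC-seq over RNA-seq, was tested by the term for genotype by assay in a fit of all 12 libraries. No member passed the limit, against 0.00543% of 18414 genes, 0 had an unadjusted p under 0.05, against 7.13% of all genes, and 5 of 10 changes were above 0, against 55.6% of all genes. The median was 0.02 for the members and 0.06 for all genes.

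The cylicins had the lowest and the highest value with all libraries in the fit. The log2 change of TE was -0.37 ± 0.31 (SE, limma, adjusted p = 0.781) for Cylc1 and 0.31 ± 0.30 (SE, limma, adjusted p = 0.811) for Cylc2. Cylc1 had TE ratios of 0.436, 0.282 and 0.778 for the numbered libraries of Igf2bp3+/- and 0.397, 0.322 and 0.344 for those of Igf2bp3-/-, and Cylc2 had 0.233, 0.272 and 0.414 against 0.433, 0.384 and 0.300. Both pairs of groups overlapped. Among the actin-like genes, changes ran from -0.12 ± 0.18 for Actl7b to 0.05 ± 0.19 for Actl9. Leaving out Igf2bp3+/- RNC-seq replicate 2 moved Cylc1 to -0.63 in TE and -0.55 in RNC-seq, and neither passed the adjusted limit. Cylc2 moved to 0.066 in TE without Igf2bp3-/- RNC-seq replicate 1, and to 0.48 without replicate 3 of that group. Ccin, at 0.27 and 0.49 in these 2 fits, then stood above it.

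Within a genotype, RNC-seq was compared with RNA-seq, and this log2 ratio is called polysome loading here. It is relative to all fragments of the library, so loading near 0 says that a transcript takes the same share of fragments in both. Summed FPKM ran from 459762 to 479788 in Igf2bp3+/- RNA-seq and from 578131 to 624341 in its RNC-seq. In Igf2bp3-/- it ran from 475891 to 509397 and from 555464 to 624792. As a share of summed FPKM, a loading of 0 is therefore lower in RNC-seq, and a small positive loading need not mean a larger share there. In Igf2bp3+/-, 2 of the 10 members were higher on polysomes, where 18.6% of 17942 genes were, and 2 were lower, where 25.1% were (limma, adjusted p under 0.05). The number of members called was near that in the whole table.

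Both cylicins, basic proteins of the calyx with many lysines, were underrepresented on polysomes. Cylc2 fell from 93.7, 81.0 and 64.8 FPKM in Igf2bp3+/- RNA-seq to 21.8, 22.1 and 26.8 in RNC-seq, a loading of -1.75 ± 0.16 (SE, limma, adjusted p = 0.000123), with 4.11% of genes below it. Cylc1 fell from 43.6, 43.0 and 29.9 to 19.0, 12.1 and 23.3 FPKM, a loading of -1.12 ± 0.25 (SE, limma, adjusted p = 0.00641), with 12.97% of genes below it. The RNA-seq and RNC-seq libraries overlapped for neither gene, and 32.5% of all genes were lower without overlap.

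The same held in Igf2bp3-/-, in libraries that share none with the former. Cylc2 was at 90.1, 65.7 and 73.0 FPKM in RNA-seq and 39.0, 25.2 and 21.9 in RNC-seq, a loading of -1.44 ± 0.23 (SE, limma, adjusted p = 0.00492). Cylc1 was at 40.4, 39.7 and 41.5 FPKM in RNA-seq and 16.1, 12.8 and 14.3 in RNC-seq, a loading of -1.50 ± 0.16 (SE, limma, adjusted p = 0.00143). In this genotype, 2.30% of genes lay below Cylc1 and 2.70% below Cylc2, and 10.9% of all 18456 genes were called lower. Both calls were kept in every fit tried, each single library left out included, and no other member was called lower by the adjusted limit in the main design.

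Actl7b was at the other end. It rose from 433, 431 and 505 FPKM in RNA-seq to 743, 810 and 760 in RNC-seq in Igf2bp3+/-, a loading of 0.76 ± 0.12 (SE, limma, adjusted p = 0.00104), with 84.3% of genes below it. In Igf2bp3-/- it rose from 528, 582 and 579 to 972, 879 and 793 FPKM, a loading of 0.64 ± 0.16 (SE, limma, adjusted p = 0.0216), where 10.1% of genes were called higher. The call in Igf2bp3-/- was lost when any of the 3 RNA-seq libraries of that genotype was left out, and the loading lay between 0.57 and 0.72 over the 6 fits that left out 1 library. It was also lost without the filter on low values, without the intensity trend and with replicate numbers as a block (limma, adjusted p = 0.0561, 0.0521 and 0.07). By the methods, the total input and the gradient fractions came from one extract, but the labels do not say which libraries share one.

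Actrt2 had a loading of 0.33 ± 0.11 in Igf2bp3+/- (SE, limma, adjusted p = 0.0342), from 484, 523 and 529 to 658, 611 and 660 FPKM. In Igf2bp3-/- its loading was again 0.33, with an SE of 0.18 and an adjusted p of 0.222. Its call was lost in 10 of the 18 other fits. Values for Actl7a (0.29 and 0.33 in the respective genotypes), Actl9 (0.20 and 0.25), Capza3 (0.27 and 0.42), Actrt3 (0.16 and 0.09), Ccin (-0.12 and 0.17) and Actrt1 (-0.04 and -0.10) did not pass the limit in either. Calls of members as higher turned on the scale. After centring each library on its median 5 members were called higher in Igf2bp3+/-, and after rescaling without CT010467.1, 1 was. That rescaling gives all libraries the same sum, and it moved the median loading of all genes to -0.31 in Igf2bp3+/- and -0.25 in Igf2bp3-/-. The parts of the removal and of the common sum in this move were not separated.

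**Figure D4:**
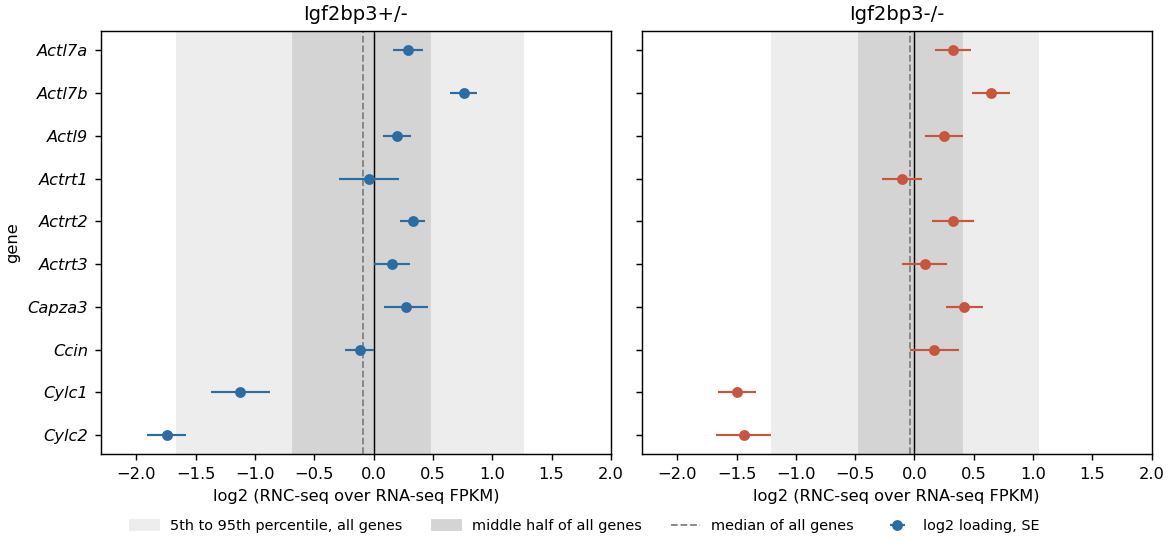
Polysome loading, log2 of RNC-seq over RNA-seq FPKM, of the 10 members in Igf2bp3+/- (left) and Igf2bp3-/- (right), with SE from limma. Grey bands span the 5th to 95th and the 25th to 75th percentile of all genes tested and the dashed line is their median. Cylc1 and Cylc2 lie far to the left in both genotypes, between -1.75 and -1.12, and Actl7b farthest to the right.

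Features of the transcripts that the choice of members did not use set the cylicins apart as well. Lysine codons made up 29.4% of the coding sequence of Cylc2 and 17.3% of that of Cylc1, but 3.86% to 6.22% in the other 8 members. Coding GC content was 40.2% in Cylc2 and 36.7% in Cylc1, and 44.9% to 59.6% in the others. The cylicins had 5 and 6 exons, while 7 of the other 8 had 1. Transcript length did not separate them, with 1641 bases in Cylc2 and 1969 in Cylc1 against 1222 to 1961 in the others.

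The same features were set beside loading over all protein-coding genes, whose median loading was -0.23 in Igf2bp3+/- and -0.14 in Igf2bp3-/-, with 31.0% and 13.3% called lower. The 53 genes with a share of lysine codons at or above that of Cylc1 had a median loading of 0.63 in Igf2bp3+/- and 0.56 in Igf2bp3-/-, and 11.3% of them were called lower in either genotype. The 354 genes with a coding GC at or below that of Cylc2 had a median of -0.08 in Igf2bp3+/-, with 22.6% called lower, and 356 such genes had -0.33 in Igf2bp3-/-, with 25% called lower. Single-exon genes (494) had a median of 0.09 in Igf2bp3+/- and genes with 2 or more exons (11999) one of -0.24, and the 422 genes of the X chromosome had 0.03. Across 12493 genes in Igf2bp3+/-, which are not independent and share the libraries, Spearman's rho of loading was 0.04 with lysine codons, -0.05 with coding GC and -0.51 with transcript length. Across 12905 genes in Igf2bp3-/- it was -0.07 with lysine codons, 0.10 with coding GC and -0.46 with transcript length, so the signs for lysine codons and GC were opposite in the 2 genotypes.

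Partners of the theca and acrosome were followed in a list of 10 genes, of which 9 were measured, since Pfn3, a profilin that binds ACTRT3, had no row under that symbol. None of the 9 passed the adjusted limit between genotypes in RNA-seq, RNC-seq or TE. Their median log2 changes were 0.12, 0.20 and 0.01, beside 0.05, 0.13 and 0.06 for all genes. Spata46, which encodes a protein of the subacrosomal region, was at 252, 260 and 287 FPKM in Igf2bp3-/- RNA-seq against 190, 192 and 150, a log2 difference of 0.59 ± 0.11 (SE, limma, adjusted p = 0.122). Wbp2nl, of the postacrosomal theca, had the largest difference in RNC-seq (0.55 ± 0.25, SE, limma, adjusted p = 0.767) and TE (0.57 ± 0.27, adjusted p = 0.700). Spaca1, a membrane protein of the acrosome, had a log2 difference of 0.32 ± 0.14 in RNA-seq (SE, limma, adjusted p = 0.328). Plcz1, the sperm phospholipase that activates the egg, had one of 0.12 ± 0.12 (adjusted p = 0.661).

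Polysome loading differed among these partners as it did among the members. In Igf2bp3+/-, 4 of 9 were called higher and 3 lower, where 18.6% and 25.1% of all genes were. Fam209 and Spata46 had loadings of 1.12 ± 0.18 and 1.08 ± 0.15 (SE, limma, adjusted p = 0.00135 and 0.000609), Spaca1 one of 0.64 ± 0.13 and Gsto2 one of 0.38 ± 0.10. Dpy19l2, a nuclear envelope protein that holds the acrosome, had -0.70 ± 0.15 (adjusted p = 0.00617), Wbp2nl -0.68 ± 0.15 and Zpbp -0.40 ± 0.12. In Igf2bp3-/-, Fam209 (1.14), Spata46 (0.89) and Dpy19l2 (-0.64) were called, in the same directions, where 10.1% of all genes were called higher and 10.9% lower. Plcz1, which shares 107 exonic bases with Capza3 on the opposite strand (7.01% of Capza3), had loadings of -0.13 and -0.38 in the respective genotypes, and was not called.

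Actin genes and capping subunits used in most cells formed a list of 7. None of them was called in any genotype comparison, and the median log2 change was 0.14 in RNA-seq, 0.19 in RNC-seq and 0.06 in TE. Cfl1, the actin-severing protein cofilin, had the largest differences of the list, 0.31 ± 0.11 in RNA-seq, 0.82 ± 0.21 in RNC-seq and 0.51 ± 0.23 in TE (SE, limma, adjusted p = 0.255, 0.513 and 0.693). Its RNC-seq libraries were at 57.6, 54.7 and 56.8 FPKM in Igf2bp3+/- and 112, 114 and 76.7 in Igf2bp3-/-, without overlap. Across all genes, 9.44% were higher without overlap in RNC-seq. Actb had changes of 0.03 ± 0.08 in RNA-seq and 0.18 ± 0.21 in RNC-seq, and Actg1 0.11 ± 0.09 and 0.28 ± 0.23.

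In polysome loading, the gamma-actin gene Actg1 (-0.49 ± 0.12, SE, limma, adjusted p = 0.00881) and the capping beta subunit Capzb (-0.46 ± 0.11, adjusted p = 0.00823) were lower on polysomes in Igf2bp3+/-, and 0 of 7 were called in Igf2bp3-/-. Capza3, by contrast, had loadings of 0.27 and 0.42, Capza1 of -0.16 and -0.22 and Capza2 of 0.03 and -0.19, with none of these 3 called in either genotype.

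Of 13 further actin-related genes, 11 were measured above the filter, Actl6b and Actr3b being the exceptions. None was called between genotypes. All 11 log2 changes were above 0 in RNA-seq, as were 56.2% of all genes, with a median of 0.12, and 3 had an unadjusted p under 0.05, as had 10.4% of all genes in that direction: Actl10 (0.40 ± 0.12), Actr10 (0.32 ± 0.09), a dynactin subunit, and Actr8 (0.29 ± 0.10), a subunit of the INO80 chromatin remodeller. In RNC-seq, Actl11 had a log2 difference of 0.93 ± 0.29 (SE, limma, adjusted p = 0.648). The median change was 0.22 in RNC-seq and -0.002 in TE. In Igf2bp3+/-, loading was called lower for Actl11 (-1.29 ± 0.14), Actr3 (-1.03 ± 0.21), a subunit of the Arp2/3 complex, and Actr1b (-1.03 ± 0.20), of dynactin, and higher for Actl10 (0.36 ± 0.12). In Igf2bp3-/-, Actr3 (-0.87 ± 0.20) was the 1 call.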

How the data were processed

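RNA-seq (total input) and RNC-seq (polysome fractions) of round spermatids from Igf2bp3+/- and Igf2bp3-/- mice were analysed, with 3 libraries in each of 4 groups taken from the labels. The authors deposited FPKM per gene symbol, made by trimming (Trim Galore 0.6.6), alignment to GRCm38 with Hisat2 and quantification with StringTie 2.1.7. The annotation release and the use of strand are not given in the sources used here. The labels describe a directional poly(A) kit and the methods a full-length library protocol, so the library chemistry is uncertain. No read counts were used.

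Of 28668 symbols, 25 converted to dates were left out. Values were tested as log2(FPKM + 0.1) with limma 3.58.1 (R 4.3.3, intensity trend, two-sided), among genes with a mean FPKM above 0.1 in the libraries compared, in both assays for TE and loading. A fold on this scale understates changes of low genes. P-values were adjusted by Benjamini-Hochberg over all genes tested, with a limit of 0.05. The scripts were tested on simulated data. Positions came from GENCODE M21, copies from BLAST 2.17.0 (95% identity over 50% of a transcript), promoters from RefSeq.

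The members and all lists were chosen with earlier results of these data known. Named were all members, Igf2bp3, Pfn3, Spaca1, Plcz1, Actb, Actg1 and the capping subunits and, per list and comparison, up to 4 genes past the limit and the 2 largest changes. Acr, Actr8, Actr10, Insl3, the Sertoli markers, Dcn, Myh11 and some round spermatid markers were named after their values were seen. Fragment numbers are approximate: 1 fragment was taken as the commonest low value, times length, among genes with 1 transcript. Alternatives varied the pseudocount, filter, scaling, weights, trend, call rule, libraries and replicate block.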

Additional observations from a re-analysis of the deposited data

How the results depend on the processing

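No member was called between genotypes in RNA-seq, RNC-seq or TE in any fit by the adjusted limit. By the limit of an unadjusted p under 0.05 with 1.5-fold, 0 members passed with all libraries. In an alternative chosen after seeing the data, that limit was applied with 1 library left out, and 1 member passed in RNC-seq without Igf2bp3-/- RNC-seq replicate 3 (Ccin, 0.59) and 1 in TE without Igf2bp3+/- RNC-seq replicate 2 (Cylc1, -0.63). Cylc1 and Cylc2 were called lower on polysomes in both genotypes in every fit. The changes of Actl7a and Actl7b in RNA-seq and RNC-seq kept their direction in every fit. The 2 members higher at an unadjusted p under 0.05 in RNA-seq became 1 in 3 fits. These were quantile normalization, rescaling without CT010467.1 and leaving out Igf2bp3-/- RNA-seq replicate 2. The counts of calls over all genes were less stable. In RNA-seq, 52 calls became 31 without a filter on low values, 84 with library weights, 1109 under the unadjusted limit and 9 to 38 on leaving out 1 library (9 without Igf2bp3-/- RNA-seq replicate 1, and 9, 11, 22 and 24 on leaving out each of 4 others). In RNC-seq, 22 became 2 without a filter, 13 with each library centred on its median, 12 after quantile normalization, 14 after rescaling without CT010467.1, 1 without the intensity trend, 1102 under the unadjusted limit, 48 in a fit over all 12 libraries and 0 to 20 on leaving out 1 library (0 without Igf2bp3-/- RNC-seq replicate 1, with 990 genes at an unadjusted p under 0.05). In TE, 1 became 0 with a pseudocount of 1, with a mean FPKM above 1 or with library weights, 2 with a pseudocount of 0.01 or without the trend, 1207 under the unadjusted limit and 1 to 2 on leaving out 1 library, and 5686 genes passed 1.5-fold in the ratio of means, which is no test and none of which was a member. Calls of loading in Igf2bp3-/- were 3880, and 1155 to 6182 without 1 library (lowest without RNA-seq replicate 1, highest without RNC-seq replicate 2).

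Members called higher in loading were 2 in Igf2bp3+/-, 1 without a filter, after rescaling without CT010467.1, without the trend, under the unadjusted limit with 1.5-fold and in the fit over all 12 libraries, 5 after centring, and 1 to 4 without 1 library (4 without RNC-seq replicate 2). In Igf2bp3-/- they were 1, 0 without a filter or without the trend, and 0 to 2 without 1 library.

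Signs of small changes turned with scaling. In RNA-seq, quantile normalization gave -0.10 for Actl9, -0.00049 for Actrt2, -0.057 for Capza3, -0.024 for Ccin and -0.019 for Cylc1, rescaling -0.038 for Actl9, -0.057 for Capza3, -0.018 for Ccin and -0.039 for Cylc1, and library weights -0.0087 for Capza3 and -0.016 for Cylc1. In RNC-seq, centring gave -0.038 for Actrt1 and -0.020 for Actrt3, quantile normalization -0.0031 for Actl9, -0.044 for Actrt1, -0.022 for Actrt2 and -0.043 for Actrt3, rescaling -0.037 for Actrt1 and -0.019 for Actrt3, and weights -0.024 for Actrt1. In TE, centring gave -0.093 for Actl7a and -0.077 for Actl9, rescaling 0.00044 for Actrt2, weights -0.036 for Actl9, 0.033 for Actrt2 and 0.013 for Actrt3, and the ratio of means 0.0014 for Actrt2. In loading in Igf2bp3+/-, centring gave 0.12 for Actrt1 and 0.039 for Ccin, rescaling -0.026 for Actl9 and -0.069 for Actrt3, and weights 0.012 for Actrt1. In Igf2bp3-/-, rescaling gave -0.13 for Actrt3 and -0.054 for Ccin. The cause was not tested.

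Without 1 library, values ranged in RNA-seq from -0.094 to 0.18 for Cylc1 and from -0.20 to 0.060 for Cylc2, in RNC-seq from -0.22 to 0.25 for Actrt1 and from -0.054 to 0.19 for Actrt3, and in TE from -0.070 to 0.095 for Actl7a, from -0.048 to 0.14 for Actl9, from -0.37 to 0.10 for Actrt1, from -0.13 to 0.082 for Actrt2, from -0.22 to 0.033 for Actrt3 and from -0.064 to 0.29 for Capza3. In loading they ranged from -0.21 to 0.27 for Actrt1 in Igf2bp3+/-, and in Igf2bp3-/- from -0.068 to 0.19 for Actrt3 and from -0.023 to 0.37 for Ccin.

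Replicate numbers were not treated as pairs. Between the assays, libraries with a shared number had deviations from the group means that correlated between -0.10 and 0.21, and not every library correlated best with its own number. With the replicate block, calls were 4 in RNA-seq, 31 in RNC-seq and 0 in TE, and in loading 7678 in Igf2bp3+/- and 4123 in Igf2bp3-/-. The block left 2 members higher in Igf2bp3+/- and 0 in Igf2bp3-/-.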
